A study of Mus musculus with 13 samples.

Results

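The 37 genes described here encode enzymes that build mucin-type O-glycans, and were chosen by name as a list ordered by biosynthetic step, out of 32285 genes in the deposited matrix. They comprise 10 genes of initiation, 6 of core formation, 9 of elongation and branching, 4 fucosyltransferases, 7 sialyltransferases and 1 sulfotransferase. Mucin-type O-glycosylation takes place in the Golgi, where a GalNAc transferase attaches the first sugar to a serine or threonine of the protein and other enzymes then add to that sugar 1 residue at a time. In the colon the most heavily O-glycosylated product is the gel-forming mucin Muc2, which goblet cells secrete as mucus, while colonocytes carry membrane-bound mucins such as Muc3 and Muc13. Several of these enzymes also act on N-glycans or glycolipids, which is said beside only some of them.

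Epithelial cells of whole mouse colons, sorted as EPCAM-positive and CD45-negative with CD44-positive and CD44-negative cells in equal parts, were profiled with a droplet 3′ single-cell RNA assay. Germ-free C57BL/6J mice, raised without microbes, made up 1 pool, and antibiotic-treated wild type C57BL/6J mice made up the other. The number of mice, their ages and the antibiotics are not given in the labels. Control mice and 8 sample-barcode libraries were not analysed here. Germ-free libraries carry the label batch2 and antibiotic libraries batch1, and condition therefore cannot be told apart from batch. With 1 pool per condition there is no replicate error and no test, and every interval below covers counting error only.

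Cell names divide the data into 5 cell sets, germ-free sets 3 and 4 and antibiotic sets 1, 2 and 3, which were not matched to libraries and are not separate animals. Antibiotic sets shared cell barcodes: 315 between sets 1 and 2, 501 between sets 2 and 3 and 48 between sets 1 and 3, against 0 within germ-free cells and 0 between conditions. The deeper copy had a median of 16.1, 9.73 and 27.8 times the UMI (unique molecule) count of the shallower one in those 3 pairs of sets. Profiles with the same barcode had a median correlation across genes of 0.50, 0.55 and 0.43, against 0.32, 0.34 and 0.39 for other barcodes. The shallower copies, 837 of 4183 cells with 3.40% of the antibiotic UMI, were therefore left out, which left 768 germ-free and 2578 antibiotic cells. With all deposited cells the number of members called below was 24 in place of 23 for goblet cells, 18 in place of 19 for crypt cells and 15 in place of 16 for proximal cells. Between conditions it was 8 over all cells, 7 in goblet and 10 in crypt cells either way, 7 in place of 8 in proximal and 2 in place of 3 in distal cells. Median depth was 2874 UMI per germ-free cell, with 1045 in set 3 and 4682 in set 4, and 10026 UMI per antibiotic cell. Mitochondrial genes took 18.7% of germ-free and 12.4% of antibiotic UMI.

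Cells were placed in gates by summed marker genes that include none of the 37 enzymes. The goblet gate held 90 germ-free and 148 antibiotic cells, the crypt gate 216 and 774, the proximal colonocyte gate 36 and 410, and the distal colonocyte gate 69 and 130. The 1473 other cells met no gate. Of the cells, 54 lay within 20% of the goblet limit and 367 within 20% of the crypt limit. Muc2 was at 7650 CPM (a gene's UMI scaled to the total UMI of the cells, the unit of all levels here) in the goblet gate and 101, 31.3 and 23.3 CPM in the crypt, proximal and distal gates, and Lgr5 at 30.3 CPM in the crypt gate and 0.812 CPM in the proximal gate. Muc2 and Lgr5 are themselves gate markers, so these levels follow from the gating and are no check of it. Adh1, listed as a proximal marker, was not highest in the proximal gate. Median summed levels of enteroendocrine, tuft, immune and stromal markers were 0 in goblet and crypt cells.

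A gene counted as measured in a comparison with at least 100 UMI in the compared cells and at least 20 CPM in the higher group. It was called higher or lower when the ratio of CPM was at least 1.5 in that direction and every cell set with at least 20 cells in both gates went the same way. Between conditions the call required all germ-free sets to lie above, or all below, the antibiotic sets. Levels are set beside each other for 1 gene across cells, or summed over a step, and 3′ tags carry 1 count per molecule.

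Promoter sequences are shown for 4 genes chosen, with their values known, from those with large differences between gates or regions, Chst4 and Galnt5 for goblet cells and B3gnt7 and B4galnt2 for opposite ends of the colon. Each runs from 250 bases before to 50 bases after the RefSeq gene start in GRCm38.p6, at chr8:110039285-110039584 (- strand), chr2:57997905-57998204 (+ strand), chr1:86302971-86303270 (+ strand) and chr11:95914822-95915121 (- strand). Capitals mark matches on either strand to an E-box (CAGNTG), a CDX motif (TTTATG) or a GATA motif (AGATAA).
Chst4: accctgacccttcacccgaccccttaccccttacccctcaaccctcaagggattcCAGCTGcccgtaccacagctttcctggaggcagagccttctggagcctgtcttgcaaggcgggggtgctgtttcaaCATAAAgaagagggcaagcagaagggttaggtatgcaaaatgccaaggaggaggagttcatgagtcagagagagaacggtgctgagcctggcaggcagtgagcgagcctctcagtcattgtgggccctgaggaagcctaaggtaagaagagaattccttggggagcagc
Galnt5: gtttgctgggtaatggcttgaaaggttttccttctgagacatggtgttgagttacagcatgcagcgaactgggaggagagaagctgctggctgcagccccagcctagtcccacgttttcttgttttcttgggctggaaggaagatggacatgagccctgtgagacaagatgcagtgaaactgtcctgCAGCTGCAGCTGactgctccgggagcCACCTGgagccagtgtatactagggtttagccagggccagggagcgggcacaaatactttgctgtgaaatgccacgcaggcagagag
B3gnt7: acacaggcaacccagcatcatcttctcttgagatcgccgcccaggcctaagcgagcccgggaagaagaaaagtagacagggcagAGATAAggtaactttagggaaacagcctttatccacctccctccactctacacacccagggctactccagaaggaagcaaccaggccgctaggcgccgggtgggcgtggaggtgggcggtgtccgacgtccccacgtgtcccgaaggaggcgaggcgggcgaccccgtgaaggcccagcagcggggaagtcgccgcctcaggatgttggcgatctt
B4galnt2: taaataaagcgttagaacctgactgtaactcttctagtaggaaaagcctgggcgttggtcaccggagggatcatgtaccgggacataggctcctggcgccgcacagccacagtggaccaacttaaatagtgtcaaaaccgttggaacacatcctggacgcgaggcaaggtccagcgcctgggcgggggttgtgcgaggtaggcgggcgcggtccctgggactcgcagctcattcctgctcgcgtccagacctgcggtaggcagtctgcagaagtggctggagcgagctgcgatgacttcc
Chst4 held 1 E-box and 1 CDX match, Galnt5 held 3 E-box matches, B3gnt7 held 1 GATA match, and B4galnt2 held none of the 3 motifs. Of 26 members with a promoter in the RefSeq table, 13 held an E-box, 4 a CDX motif and 3 a GATA motif (50%, 15.4% and 11.5%), against 51.4%, 11.9% and 11.2% of all 32851 promoters of that length.

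Goblet cells held more transcripts for most steps of the pathway than crypt cells and colonocytes did. Elongation was not among these steps. Its sum was 709 CPM in germ-free goblet against 721 CPM in germ-free crypt cells, and 852 against 938 CPM in antibiotic ones. The sialic acid step was mixed in germ-free cells. St3gal4 (429 CPM) and St6galnac6 (189 CPM) were highest in distal cells, and St3gal3, St3gal6 and St6gal1 in goblet cells. Summed over the 37 genes, the level was 5486 CPM in germ-free goblet cells, against 2257, 2075 and 2478 CPM in germ-free crypt, proximal and distal cells. In antibiotic mice the sum was 5909 CPM in goblet cells and 2873, 2106 and 2799 CPM in crypt, proximal and distal cells. The goblet gate had the highest level of 22 members in each condition, and of the 31 members with at least 30 UMI in the gates of both conditions, 27 had the same highest gate in both. The same counts were not made over all genes.

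**Figure D1:**
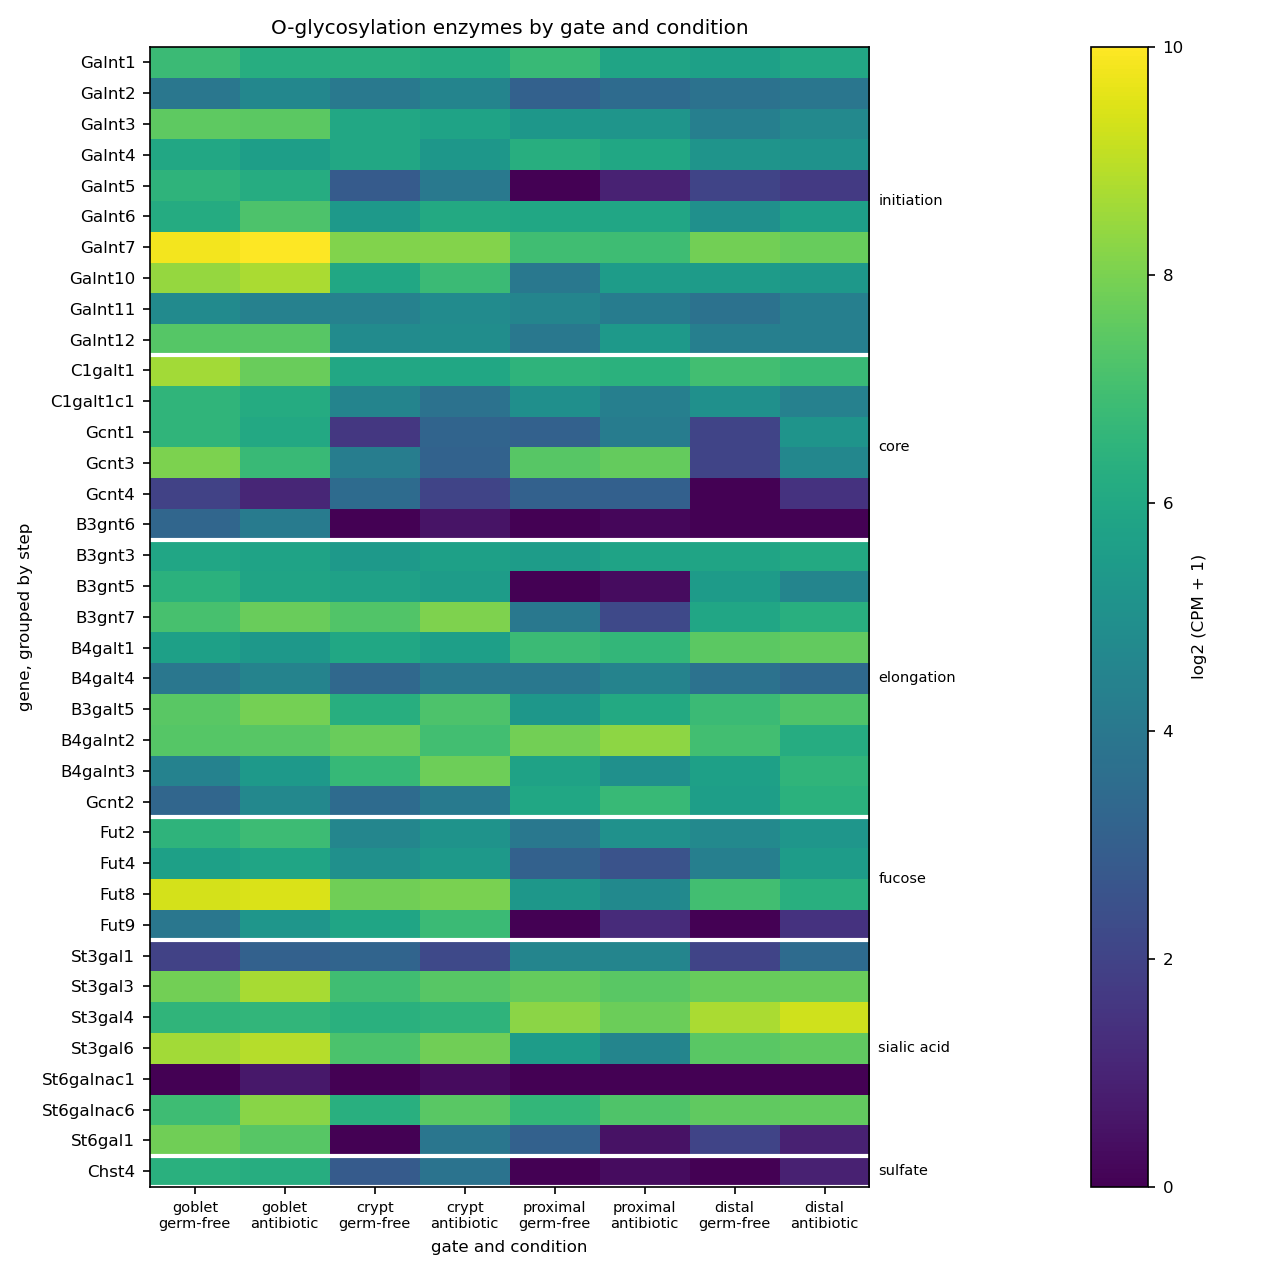
Level of each of the 37 enzymes (rows, grouped by step) in 4 gates, germ-free left of antibiotic in each pair, as log2 of CPM + 1. Initiation, fucose and sialic acid genes such as Galnt7, Fut8 and St3gal6 are brightest in goblet cells, and St3gal4 in distal colonocytes.

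In antibiotic cells, where depth was greatest, 33 of the 37 members were measured in goblet cells against the other gates, and 23 were called, 19 higher and 4 lower. Of all 6875 genes measured, 34.6% were called in either direction, 18.9% higher and 15.7% lower. The median log2 ratio was 1.06 over the measured members and 0.08 over all measured genes. In germ-free cells 17 members were measured and 13 called, 10 higher and 3 lower, against 27% of all genes in that comparison (12.7% higher and 14.2% lower). By step, the calls in antibiotic cells were 6 higher of 10 measured for initiation, 3 of 4 for core formation, 2 higher and 3 lower of 9 for elongation, 3 higher of 4 for fucose, 4 higher and 1 lower of 5 for sialic acid, and 1 of 1 for sulfate.

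Among the initiating GalNAc transferases, Galnt7, which acts on peptides that already carry a GalNAc, had the most UMI. Its level was 730 and 940 CPM in the goblet cells of germ-free sets 3 and 4, and 1242, 860 and 989 CPM in those of antibiotic sets 1, 2 and 3. All 5 values lay above every crypt, proximal and distal value, of which the highest was 352 CPM, in crypt cells of antibiotic set 1. The goblet ratio was 3.64 (95% interval 3.11 to 4.25) in germ-free and 4.90 (4.63 to 5.18) in antibiotic cells. Galnt5 had the largest ratio of the family, with 112 and 84.1 CPM in germ-free goblet cells and 100, 61.8 and 65.1 CPM in antibiotic goblet cells. Crypt values of Galnt5 reached 24.3 CPM, in antibiotic set 1, and the antibiotic goblet ratio was 9.02 (7.08 to 11.5).

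Galnt10 had a goblet ratio of 6.58 in germ-free and 5.47 in antibiotic cells, and Galnt3 of 3.63 and 4.09. Galnt12 (ratio 5.23) and Galnt6 (2.41) were called higher in antibiotic goblet cells and had too few UMI to be measured in germ-free ones. Galnt1 was called higher in germ-free goblet cells, with 112 CPM against 73.1 CPM in the other germ-free gates. Germ-free proximal cells alone were near the goblet level, at 106 CPM. In antibiotic cells it was not called, at 73.7 CPM in the goblet gate and 63.6 CPM in the others, a ratio of 1.16; the difference between conditions was not tested. Galnt2, Galnt4 and Galnt11 were not called, with antibiotic ratios of 1.45, 1.03 and 0.890. Galnt4 lies inside Poc1b on the same strand, at its 3′ end, so its reads may be shared; Poc1b was at 23.4 CPM. Galnt5, Gcnt2 and St3gal6 overlap genes of the opposite strand at their 3′ ends, which were at 0, 3.39 and 3.54 CPM.

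Core formation starts with C1galt1, which adds galactose to make core 1, and its chaperone C1galt1c1 (Cosmc), without which the enzyme is not active. C1galt1 was at 393 and 389 CPM in germ-free goblet cells and 191, 247 and 185 CPM in antibiotic goblet cells, and its goblet ratio was 4.90 (3.78 to 6.36) in germ-free and 2.75 (2.45 to 3.08) in antibiotic cells. C1galt1c1 had an antibiotic goblet ratio of 4.30, with 69.3 CPM against 16.1 CPM. Gcnt1, a core 2 branching enzyme, had a ratio of 4.31, with 64.9 CPM against 15.1 CPM.

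Gcnt3, which makes core 2 and core 4 branches, did not follow the goblet pattern in antibiotic cells. It was at 107, 159 and 71.7 CPM in goblet cells of antibiotic sets 1, 2 and 3, and at 207, 189 and 195 CPM in proximal colonocytes of the same sets. Germ-free goblet cells had 337 and 249 CPM of Gcnt3, and germ-free proximal cells 43.6 and 192 CPM. The germ-free goblet ratio to all other gates was 9.25 (6.30 to 13.8), against 1.31 (1.12 to 1.52) in antibiotic cells. Few proximal cells were germ-free, 36 against 410 antibiotic, so the other gates differ in makeup between the 2 ratios, and the difference was not tested. B3gnt6, the core 3 enzyme, was at 8.86 CPM in germ-free goblet cells and 17.1 CPM in antibiotic goblet cells, from 3 and 31 UMI. It had 0 UMI in distal cells of both conditions, which allows up to 9.46 CPM in germ-free and 1.33 CPM in antibiotic ones when 3 UMI are taken as the limit of a count of 0, as they are for every such limit here. Gcnt4 was at most 11.6 CPM in any gate and cell set.

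Elongation genes did not move together. B3galt5, a galactosyltransferase of type 1 chains, was at 168 and 172 CPM in germ-free goblet cells and 258, 236 and 226 CPM in antibiotic goblet cells, with goblet ratios of 2.14 in germ-free and 2.05 in antibiotic cells. B3gnt5, which starts the lacto-series of glycolipids, had an antibiotic ratio of 2.31. B3gnt7, which extends N-acetyllactosamine chains, was at 136 CPM against 121 CPM in germ-free cells. In antibiotic cells it lay just under the limit of the call, at 211 CPM in goblet cells.

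Lower in goblet cells were B4galnt3, Gcnt2 and B4galt1. B4galnt3, which makes LacdiNAc, was at 20.7 CPM in germ-free goblet cells against 86.6 CPM in the other germ-free gates, and at 40.7 CPM in antibiotic goblet cells against 130.7 CPM in the other antibiotic gates. Antibiotic proximal cells alone had less B4galnt3, at 31.8 CPM. Gcnt2, the I-branching enzyme, was at 24.2 CPM in antibiotic goblet cells, against 104 and 82.0 CPM in antibiotic proximal and distal cells. Antibiotic crypt cells had less Gcnt2 than goblet cells, at 16.1 CPM. Thinned to 1000 UMI, the log2 ratio of Gcnt2 in goblet cells to the other gates was 0.17 in place of -1.25. B4galt1, a broad galactosyltransferase, had goblet ratios of 0.544 in germ-free and 0.458 in antibiotic cells. B3gnt3, B4galt4 and B4galnt2 were not called, with antibiotic ratios of 1.02, 1.25 and 0.868.

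Of the fucosyltransferases, Fut8 adds core fucose to N-glycans and was at 749 and 642 CPM in germ-free goblet cells and 944, 600 and 608 CPM in antibiotic goblet cells. Its goblet ratio was 3.58 (2.98 to 4.30) in germ-free and 4.88 in antibiotic cells. Fut2, which makes the terminal H antigen on mucins, had an antibiotic ratio of 3.35 and Fut4, which can make Lewis-type structures, one of 2.12. Fut9 was not called in goblet cells, at 36.9 CPM against 54.6 CPM in antibiotic cells.

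Sialyltransferases gave the largest goblet ratio of all members. St6gal1, which adds alpha2,6-linked sialic acid mainly to N-glycans, was at 187 and 235 CPM in germ-free goblet cells and 211, 145 and 157 CPM in antibiotic goblet cells. In the other gates it was at 27.7 CPM or less in every set, and it had 0 UMI in germ-free crypt cells, which allows up to 3.13 CPM. The antibiotic ratio was 23.3 (18.9 to 28.8). St3gal6 was at 393 CPM in germ-free goblet cells against 141 CPM in the other germ-free gates, and at 468 CPM against 142 CPM in antibiotic cells. St3gal3 had goblet ratios of 1.59 in germ-free and 2.37 in antibiotic cells. St6galnac6 was called in antibiotic cells, with a ratio of 1.78, and not in germ-free cells, with 1.12; the difference was not tested. The one member called lower was St3gal4, at 91.5 CPM against 181 CPM in germ-free cells and 95.7 CPM against 203 CPM in antibiotic cells. Crypt cells alone had less St3gal4 than goblet cells, at 81.3 CPM in germ-free and 90.2 CPM in antibiotic cells. St6galnac1, which makes the sialyl-Tn antigen, had 1 UMI in the antibiotic goblet gate and 0 in the germ-free one.

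Chst4, the sulfotransferase of the list, adds sulfate to N-acetylglucosamine. It was at 37.4 and 87.6 CPM in germ-free goblet cells and 91.2, 74.8 and 65.1 CPM in antibiotic goblet cells. It was at 0 UMI in germ-free colonocytes, which allows up to 22.6 CPM in proximal and 9.46 CPM in distal cells at 3 UMI (the exact Poisson upper bounds are 27.8 and 11.6 CPM), and at 0.276 and 0.886 CPM in antibiotic proximal and distal cells. The antibiotic goblet ratio was 11.5 (8.90 to 14.8).

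**Figure D2:**
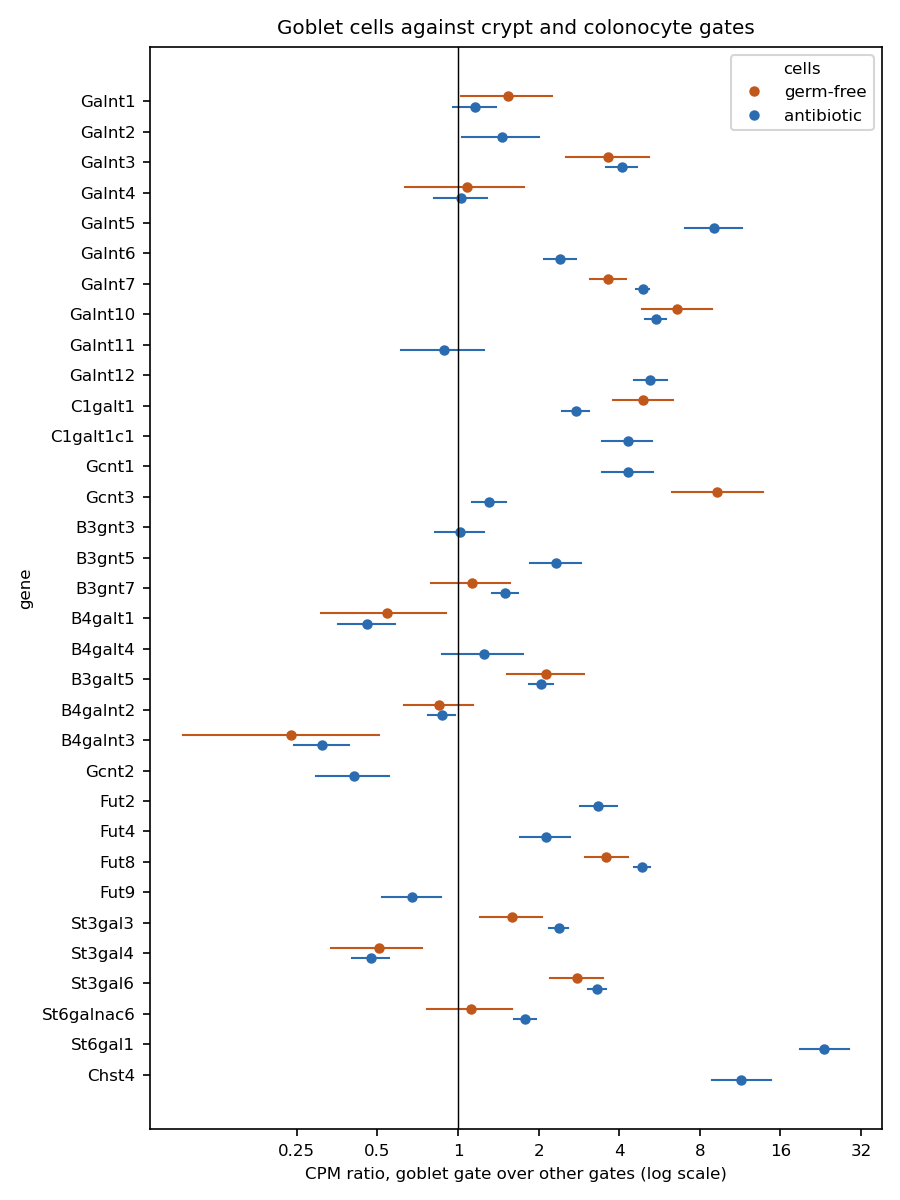
Ratio of CPM in the goblet gate over the other 3 gates (x axis, log scale) for the 33 members measured in antibiotic cells, with 95% counting intervals, germ-free points above antibiotic ones and drawn only where measured. St6gal1, Chst4 and Galnt5 lie farthest right, and B4galnt3 farthest left.

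Genes that supply sugar donors were also high in goblet cells. Of 17 measured genes of donor synthesis and Golgi transport, 13 were called higher and 1 lower in antibiotic goblet cells, against 18.9% and 15.7% of all genes. In germ-free goblet cells 7 of 14 were called higher and 7 were not called, against 12.7% of all genes higher. Gmds, of GDP-fucose synthesis, was at 2506 CPM in antibiotic goblet cells against 814 CPM in the other gates. Gne, of sialic acid synthesis, was at 582 CPM against 210 CPM, and Slc35a1, the CMP-sialic acid transporter, at 153 CPM against 56.8 CPM. The lower gene was Papss2, of sulfate donor synthesis, at 105 CPM against 287 CPM. General Golgi and vesicle genes were higher too, 5 of 8 measured, with Golgb1 at 448 CPM against 232 CPM. Of 8 measured related enzymes outside the 37, 3 were called higher and 3 lower in antibiotic goblet cells. St6galnac4 (39.1 CPM against 7.35 CPM), St6galnac2 (33.0 CPM against 15.2 CPM) and Gal3st2 (ratio 6.10) were higher. B3gnt2 (57.2 CPM against 111 CPM), B4galt6 (16.5 CPM against 41.5 CPM) and Gal3st1 (11.6 CPM against 28.4 CPM) were lower.

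**Figure D3:**
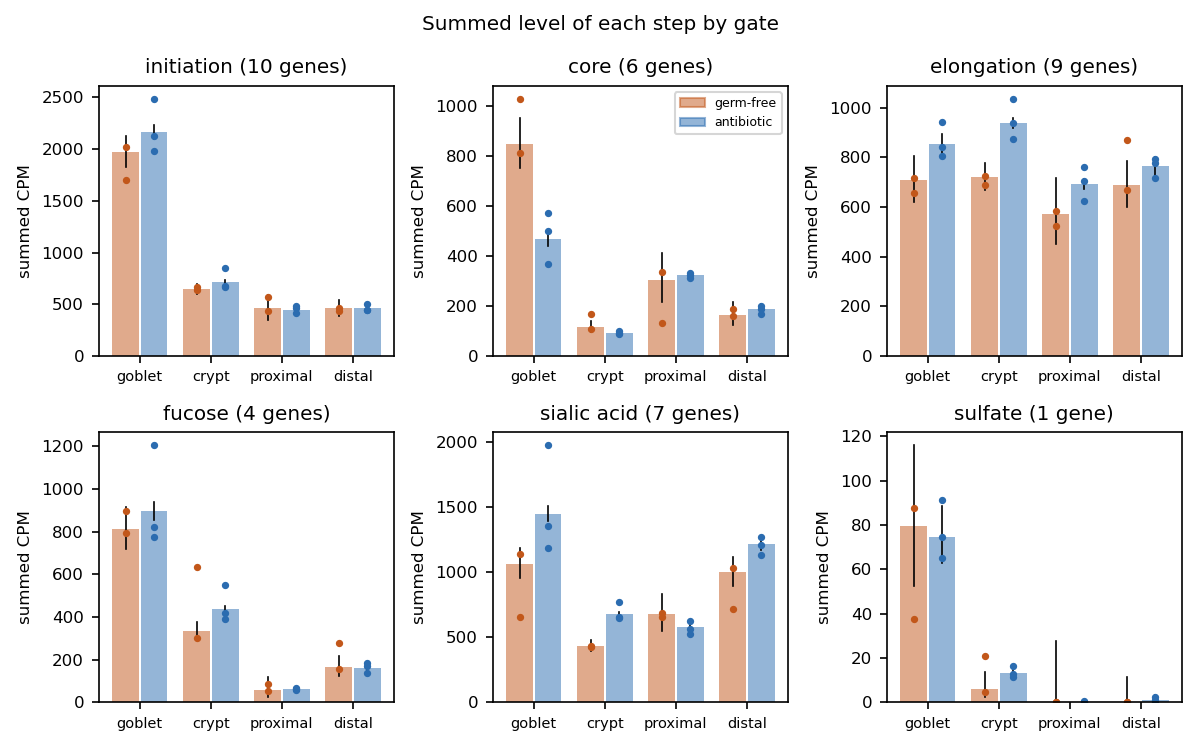
Summed CPM of the genes of each step (bars, with 95% counting intervals as lines) in 4 gates, germ-free left of antibiotic, with a dot for each cell set. Initiation sums to 1972 CPM in germ-free and 2166 CPM in antibiotic goblet cells, and core formation to 847 and 470 CPM.

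Crypt cells and colonocytes differed in which enzymes they carried. Of 28 members measured in antibiotic cells, 19 were called, 13 higher and 6 lower in crypt cells, against 59% of all measured genes. Of all genes 42.1% were higher and 16.9% lower, so the members' share is near that of all genes. With median-of-ratios scaling, which shifts the median of all genes by -0.49 on the log2 scale, the split was 8 higher and 14 lower. In germ-free cells 13 members were measured and 7 called, 3 higher and 4 lower, against 38.9% of all genes (21.2% higher and 17.6% lower).

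Fut9, which makes Lewis x, had the largest crypt ratio. It was at 115 and 51.0 CPM in germ-free crypt cells and 142, 102 and 103 CPM in antibiotic crypt cells, and at 0 CPM in germ-free colonocytes and no more than 2.91 CPM in antibiotic ones. The antibiotic ratio was 75.8 (45.0 to 139). B3gnt7 was at 155 CPM in germ-free crypt cells against 46.7 CPM in colonocytes, and at 268 CPM in antibiotic crypt cells against 21.3 CPM. B3gnt5 (antibiotic ratio 8.04), Fut8 (6.59), B4galnt3 (4.80), St3gal6 (3.69) and Fut4 (2.75) were also higher in antibiotic crypt cells than in the pooled colonocytes. Fut4 was at 45.7 CPM in antibiotic distal cells, above its crypt level, and at 4.96 CPM in antibiotic proximal cells.

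The initiation genes Galnt10, Galnt7, Galnt2, Galnt3 and Galnt11 were called higher in antibiotic crypt cells with ratios of 2.57, 2.03, 1.93, 1.64 and 1.51. B3galt5 had a ratio of 1.72, and its log2 ratio was -0.22 in germ-free against 0.77 in antibiotic cells. In antibiotic distal cells B3galt5 was at 151 CPM, above its crypt level, and in antibiotic proximal cells at 66.0 CPM. Lower in crypt cells were Gcnt3 (ratio 0.0502), Gcnt2 (0.163), St3gal4 (0.293), Gcnt1 (0.384), B4galt1 (0.409) and B4galnt2 (0.487). Gcnt3 was at 7.79 CPM in antibiotic crypt cells against 155 CPM in antibiotic colonocytes. The pooled log2 ratio of B4galnt2 turned sign between conditions, at 0.42 in germ-free against -1.03 in antibiotic cells. Its crypt level lay between proximal (234 and 314 CPM) and distal cells (126 and 72.2 CPM) in germ-free and antibiotic mice. Colonocytes were 36 proximal and 69 distal cells in germ-free mice, against 410 and 130 in antibiotic mice. The part of this makeup in the sign change was not tested. In germ-free cells B3gnt7 (3.33), Fut8 (2.29) and B4galnt3 (2.02) were higher, and St3gal4 (0.207), B4galt1 (0.378), St6galnac6 (0.488) and St3gal3 (0.610) lower.

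Proximal and distal colonocytes expressed different sets of enzymes. In antibiotic cells 16 of 26 measured members were called, 6 higher and 10 lower in proximal cells, against 26.6% of all genes (14.3% higher and 12.3% lower). In germ-free cells 1 member was measured and 0 were called, against 24% of all genes (13.5% higher and 10.5% lower); 36 germ-free cells were proximal.

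Higher in proximal cells were Gcnt3 and B4galnt2. Gcnt3 was at 207, 189 and 195 CPM in proximal cells of antibiotic sets 1, 2 and 3, and at 20.3, 13.0 and 32.1 CPM in distal cells, a ratio of 8.19. B4galnt2, which makes the Sda antigen, was at 378, 313 and 277 CPM in proximal cells and 78.9, 78.0 and 66.1 CPM in distal cells, a ratio of 4.35. No antibiotic set overlapped between the 2 regions for either gene. The share of all genes without such overlap was not counted, and the sets are parts of 1 pool. B4galt4 (2.21), St3gal1 (2.19), Galnt12 (2.13) and Galnt4 (1.87) were higher in proximal cells too. The direction turned for B4galt4 when cells were thinned to 1000 UMI (log2 ratio -0.32 against 1.07) and for Galnt12 in germ-free cells (-0.31 against 1.05, from 2 proximal and 6 distal UMI).

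Of 8 measured elongation genes 2 were called higher and 4 lower in proximal cells, and of 5 sialyltransferases 1 higher and 2 lower. The summed level of elongation genes was 693 CPM in proximal and 766 CPM in distal antibiotic cells, with overlapping intervals in set 1, and that of sialyltransferases 578 and 1214 CPM. B3gnt7 was at 2.17, 4.31 and 3.88 CPM in antibiotic proximal cells and 54.1, 73.7 and 91.0 CPM in antibiotic distal cells, a ratio of 0.0457 (0.0290 to 0.0692). St3gal4, which makes alpha2,3-sialylated chains, was at 190, 216 and 222 CPM in proximal cells and 651, 636 and 587 CPM in distal cells, a ratio of 0.345. The other genes lower in proximal cells were Fut4 (0.109), St3gal6 (0.119), Fut8 (0.323), B4galnt3 (0.345), B3galt5 (0.437), Gcnt1 (0.492), B4galt1 (0.509) and Galnt7 (0.584). The direction of Gcnt1 turned with stricter gates (log2 ratio 1.11 against -0.98) and in germ-free cells (1.04, from 1 UMI in each region), and B4galnt3 was at 0.07 in germ-free cells against -1.50. Germ-free levels of B3gnt7 were 15.1 CPM in proximal and 59.9 CPM in distal cells, from 2 and 19 UMI, and those of St3gal4 were 309 and 429 CPM. St3gal4, the 1 member measured there, was not called, since set 3, which alone had 20 cells in both gates, went the other way, at 349 CPM in proximal and 311 CPM in distal cells.

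B3gnt7 and B4galnt2 also differed within crypt cells, in a split that was chosen after values were seen, at the median of the summed distal markers. B3gnt7 was at 357 CPM on the distal side and 77.7 CPM on the other side in antibiotic crypt cells, a ratio of 4.60, and at 245 and 5.56 CPM in germ-free crypt cells, from 147 and 2 UMI. B4galnt2 ran the other way, at 67.7 CPM on the distal side and 248 CPM on the other in antibiotic cells, and at 127 and 353 CPM in germ-free cells. In antibiotic cells 12 of 27 measured members were called, 7 higher and 5 lower on the distal side, against 37.3% of all genes (21.7% higher and 15.6% lower). In germ-free cells 5 of 6 were called, 3 higher and 2 lower, against 18.4% (11.8% higher and 6.63% lower). The distal side was deeper, with a median of 9757 UMI per antibiotic cell against 5753, and 4368 UMI per germ-free cell against 2232; the part of depth in these ratios was not tested.

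**Figure D4:**
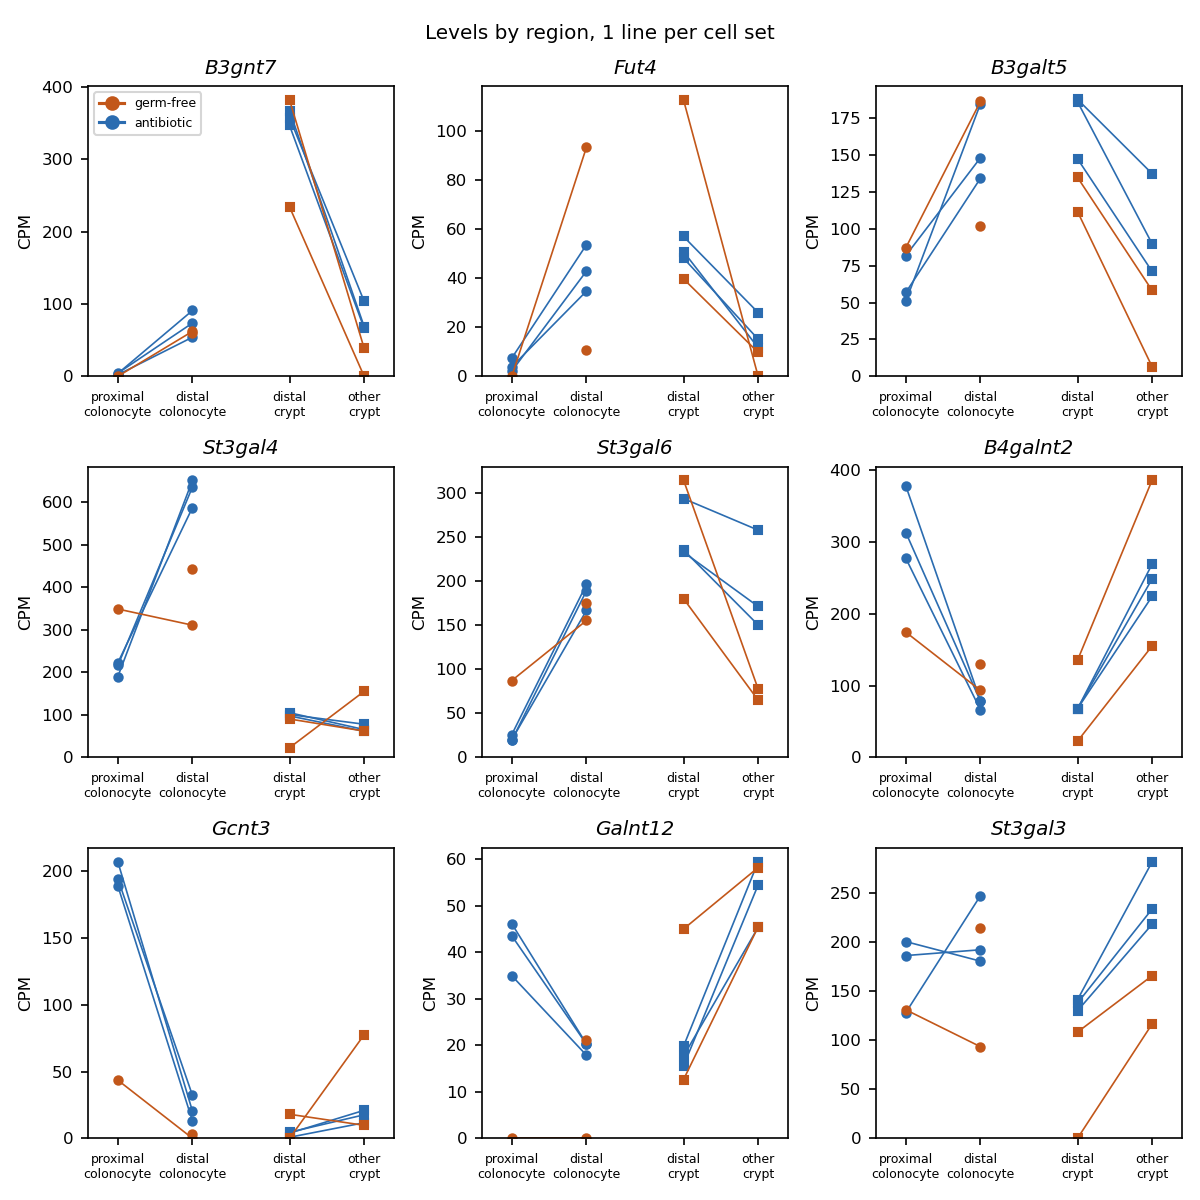
Levels (CPM) of 9 enzymes in proximal and distal colonocytes (circles) and in the distal and other sides of the crypt gate (squares), with 1 line per cell set and gates under 20 cells left out. B3gnt7, Fut4 and B3galt5 are higher at the distal end in all antibiotic sets, and B4galnt2 at the proximal end.

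Germ-free and antibiotic cells were set against each other over all cells and within each gate. Over all cells 28 members were measured and 8 called, 4 higher and 4 lower in germ-free cells, against 13.9% of all genes (7.3% higher and 6.62% lower). The count was 5 without germ-free set 3 and 17 without germ-free set 4, where 38.2% of all genes were called, and 1 at a limit of 2-fold. The median log2 ratio over the members was -0.01, against 0.05 over all measured genes. Median-of-ratios scaling split the calls into 3 higher and 5 lower. Higher in germ-free cells were St6gal1 (26.1 CPM against 12.7 CPM), B3gnt5 (37.4 CPM against 20.6 CPM), C1galt1c1 (31.9 CPM against 19.5 CPM) and C1galt1 (ratio 1.53). Lower were Fut2 (22.9 CPM against 38.3 CPM), B4galnt3 (66.8 CPM against 107 CPM), Gcnt2 (42.9 CPM against 67.2 CPM) and St6galnac6 (104 CPM against 159 CPM). Goblet cells made up 90 of 768 germ-free and 148 of 2578 antibiotic cells, and the part of this difference in makeup was not tested. A stricter choice of cells took at least 1000 UMI, at most 15% mitochondrial UMI and no doublets. It left 198 germ-free and 1382 antibiotic cells. With these stricter cells 11 members were called, 8 higher and 3 lower in germ-free cells, against 19.2% of all genes.

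Within goblet cells 26 members were measured and 7 called, 3 higher and 4 lower in germ-free cells, against 18.1% of all genes (8.05% higher and 10.1% lower). The count was 13 without germ-free set 4, 5 higher and 8 lower, with 47% of all genes called, and 3 at a limit of 2-fold. Higher in germ-free cells were the core genes C1galt1 and Gcnt3. C1galt1 was at 390 CPM in germ-free and 207 CPM in antibiotic goblet cells, a ratio of 1.88, and Gcnt3 at 263 and 110 CPM, a ratio of 2.39 (1.84 to 3.08). In both genes the 2 germ-free sets lay above the 3 antibiotic ones, which the call required. Galnt1 had a ratio of 1.52. Among donor genes, Gne and Gmds were called lower in germ-free goblet cells, with ratios of 0.665 and 0.614. Lower in germ-free goblet cells were St6galnac6, at 37.4 and 133 CPM in germ-free sets against 441, 259 and 244 CPM in antibiotic sets, St3gal3 (ratio 0.563), Galnt6 (0.477) and B3gnt7 (0.645). Thinned to 1000 UMI, B3gnt7 had a log2 ratio of 0.28 in place of -0.63.

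The goblet gate itself differed in makeup and depth. Its summed goblet markers had a median of 438 per 10000 UMI in germ-free and 104 in antibiotic cells, Muc2 was at 12129 and 6816 CPM and was not called, and median depth was 2464 and 8318 UMI per cell. The part of these differences in the result was not tested. Cells with more Zg16 and Clca1 than Spink4 UMI were 69 of 90 in germ-free and 48 of 148 in antibiotic mice, in a split chosen after values were seen. On the Zg16 and Clca1 side, C1galt1 (361 CPM against 208 CPM), Gcnt3 (313 CPM against 168 CPM) and St3gal6 (349 CPM against 203 CPM) were called higher in germ-free cells and St3gal3 lower (240 CPM against 555 CPM). Antibiotic sets 1, 2 and 3 held 9, 19 and 20 cells on that side, so of these only set 3 entered the rule of direction. The share of all genes called on that side was not counted. St6galnac6 was at 89.3 CPM in germ-free and 119 CPM in antibiotic cells on that side, a ratio of 0.753 (0.445 to 1.23), and at 195 and 387 CPM on the Spink4 side, a ratio of 0.503 (0.296 to 0.804). B3gnt7 had ratios of 0.948 (0.536 to 1.62) on the Zg16 and Clca1 side and 1.03 (0.663 to 1.54) on the Spink4 side. Neither gene was called on either side: both had too few UMI to be measured on the Zg16 and Clca1 side, and no germ-free set had 20 cells on the Spink4 side.

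Within antibiotic goblet cells, the side with more Zg16 and Clca1 than Spink4 UMI was set against the Spink4 side, a split chosen after values were seen and in which 1 cell set held 20 cells on both sides. Of 24 measured members 13 were called, against 29.8% of all genes (12.2% higher and 17.6% lower). Gcnt3 (168 CPM against 81.0 CPM), B4galnt2 (247 CPM against 128 CPM) and St3gal3 (555 CPM against 344 CPM) were higher on the Zg16 and Clca1 side. St6galnac6, Fut4, B3gnt7, Gcnt1 and St3gal6 were lower there, with ratios of 0.306 to 0.337, as were B3gnt5, Fut2, Chst4, Fut8 and Galnt7, with ratios of 0.451 to 0.638. B4galnt2 was also higher in proximal colonocytes, and B3gnt7, Fut4 and St3gal6 in distal colonocytes. The latter 3 genes were higher, and B4galnt2 lower, in antibiotic crypt cells than in colonocytes as well, while Gcnt1 was lower in crypt cells. St3gal4, higher in distal colonocytes, was not called between the goblet sides. It was at 112 CPM on the Zg16 and Clca1 side and 87.6 CPM on the Spink4 side. What the split follows was not tested.

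In crypt cells 26 members were measured and 10 called, 2 higher and 8 lower in germ-free cells, against 16.3% of all genes (6.01% higher and 10.3% lower). St6galnac6 (79.3 CPM against 174 CPM), B4galnt3 (103 CPM against 221 CPM), B3galt5 (76.1 CPM against 148 CPM) and Galnt10 (60.5 CPM against 113 CPM) had ratios of 0.456 to 0.534. B3gnt7 (ratio 0.579), St3gal6 (0.632), Galnt6 (0.633) and Fut2 (0.665) were also lower. The interval of Fut2, 0.410 to 1.03, includes 1. Galnt4 (ratio 1.66) and C1galt1c1 (1.72) were higher. St6galnac6 was called lower in germ-free cells in both goblet and crypt gates. Within the 2 sides of the goblet gate no call was possible for it, for the reasons given above. Its ratio was 0.753 (0.445 to 1.23) on the Zg16 and Clca1 side and 0.503 (0.296 to 0.804) on the Spink4 side. At a limit of 2-fold 2 crypt members were called.

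Distal cells had 3 of 18 measured members called, B4galnt2 (1.75) and Fut8 (1.56) higher and Gcnt2 (0.577) lower, against 18.1% of all genes (10.5% higher and 7.63% lower). The distal count was 6 without germ-free set 3, 1 higher and 5 lower, 7 without germ-free set 4 and 0 at a limit of 2-fold. B4galnt2 turned direction when levels were averaged over cells, with a log2 ratio of -0.26 in place of 0.80. Proximal cells had 8 of 25 called, 4 higher and 4 lower, against 30.4% of all genes (13.2% higher and 17.2% lower), from 36 germ-free cells of which 1 set reached 20. The proximal count was 15 without germ-free set 4. For 1 of these 8, Galnt1, the interval of the ratio excluded 1. It was at 106 CPM in germ-free and 56.5 CPM in antibiotic proximal cells. With median-of-ratios scaling the calls were 0 higher and 3 lower in distal cells and 2 higher and 7 lower in proximal cells.

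**Figure D5:**
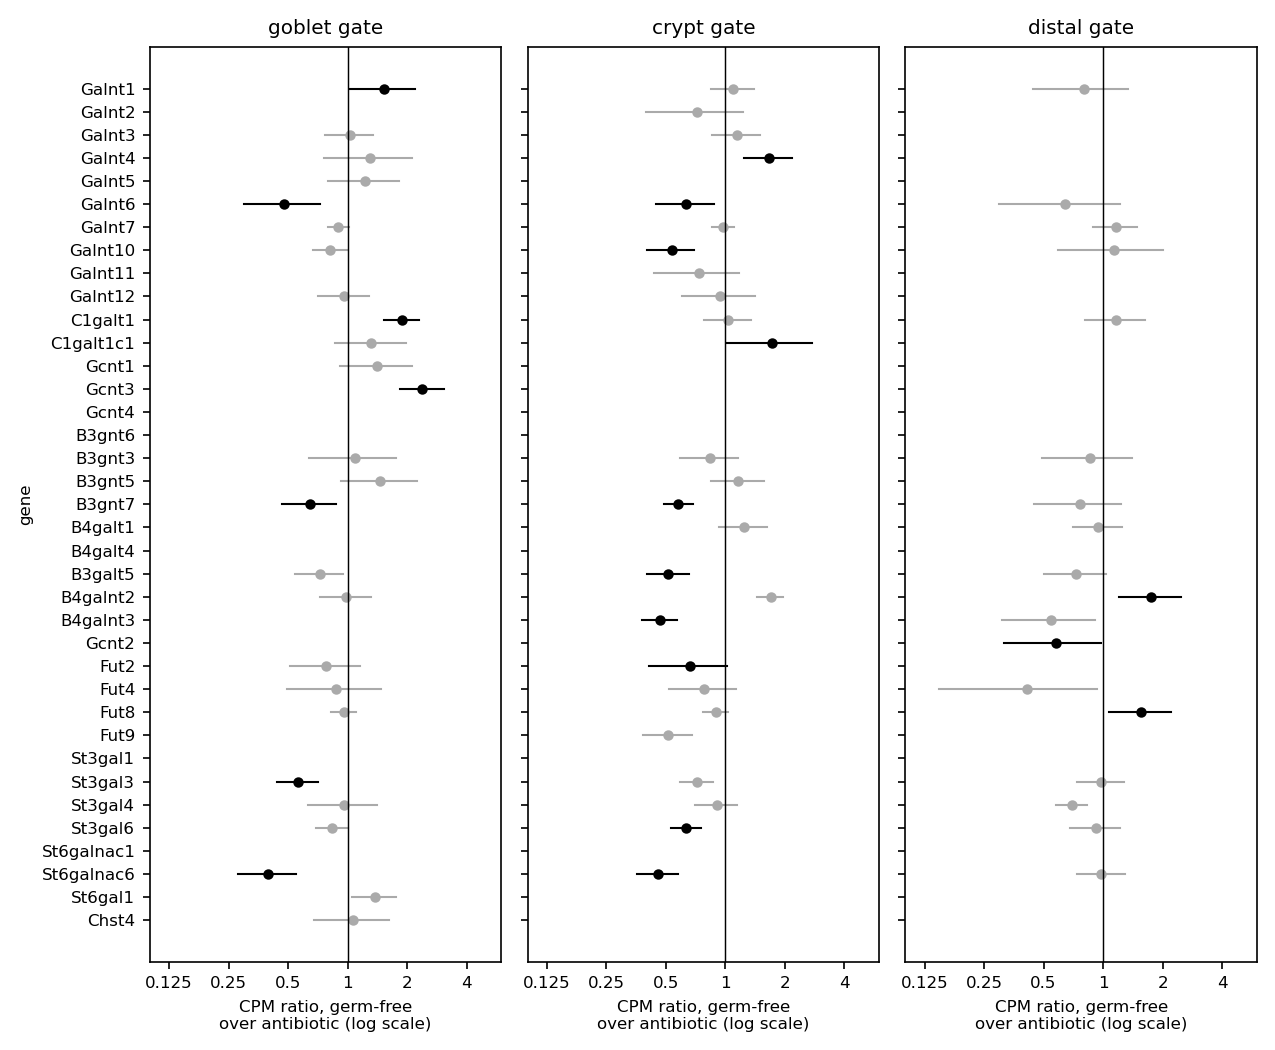
Ratio of CPM in germ-free over antibiotic cells (x axis, log scale) for measured members in the goblet, crypt and distal gates, with 95% counting intervals, black where called and grey where not. St6galnac6 lies left of 1 in the goblet and crypt panels, and Gcnt3 and C1galt1 right of 1 in the goblet panel.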

How the data were processed

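The 37 members, the gene lists and the gate markers were chosen with earlier results of these data known. What the authors deposited is a matrix of natural log values for genes by cells. Their exponential minus 1 sums to 10000 in every cell, and UMI counts were recovered by division by each cell's smallest value, which made 100% of 9481333 nonzero entries whole to a tolerance of 0.01. Per the submitters' processing notes the build was mm10 and the tools were kallisto, bustools and Cell Ranger 7.0.0, in steps that are not described; strand use in counting is not given. Of barcodes found in several antibiotic sets the copy with most UMI was kept. The goblet gate required at least 50 marker UMI per 10000, 5 marker UMI and 2 markers. The crypt and colonocyte gates used medians over cells (2.36 and 50.8 per 10000), proximal cells the median over colonocytes (31.9) and distal cells the 75th percentile (3.53). These limits were chosen for this work. Counts were summed per gate and scaled to CPM by total UMI. Log2 ratios were taken after 1 CPM was added to each level. Intervals are exact Poisson for levels and conditional binomial for ratios, at 95%. The limit given for a count of 0 is 3 UMI over the total of those cells. Values are printed for every member called, except in the split of crypt cells and between conditions in proximal cells, where some are left out. They are also printed for up to 3 of each step with the highest CPM. The contrast was tested on simulated data. Scrublet marked 14 cells (0.418%) as doublets, which were kept. Positions are from GENCODE vM21. Tools were Python 3.11.15, NumPy 2.4.6, SciPy 1.17.1, pandas 2.3.3, Scanpy 1.11.5 and matplotlib 3.10.9. Not every donor gene called is reported here.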

Additional observations from a re-analysis of the deposited data

Results flagged for a closer look

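B3galt5 differed in direction between conditions when crypt cells were set against colonocytes. Its log2 ratio of crypt over colonocyte gates was -0.22 in germ-free cells and 0.77 in antibiotic cells. Every cell set of each condition lay on its own side, which the rule for this flag required. The difference was not tested. Colonocytes were 36 proximal and 69 distal cells in germ-free mice, against 410 and 130 in antibiotic mice, and B3galt5 was at 37.7 and 110 CPM in germ-free proximal and distal cells and at 66.0 and 151 CPM in antibiotic ones. The part of this makeup in the difference was not tested.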

How the results depend on the processing

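No paired analysis was possible because each condition was 1 pool and the 2 conditions share no replicate numbers. With all deposited cells, an alternative chosen after seeing the data, the called members numbered 24 for goblet, 18 for crypt and 15 for proximal cells against their counterparts, and 8, 7, 10, 7 and 2 between conditions in all, goblet, crypt, proximal and distal cells. Thinning to 1000 UMI, which leaves fewer members measured, gave 10, 8 and 2 for the 3 gate comparisons and 4 (all cells), 0 (goblet, 4 measured), 4 (crypt) and 1 (distal) between conditions, with no count in proximal cells. A limit of 2-fold gave 1, 3, 2, 3 and 0 between conditions in all, goblet, crypt, proximal and distal cells. The stricter cells, which leave out 570 germ-free and 1196 antibiotic cells, gave 24, 18 and 18 for the 3 gate comparisons. Between conditions they gave 11, 7 and 10 in all, goblet and crypt cells, and no count in proximal or distal cells. With at least 30 UMI and no CPM minimum 16 were called in crypt and 6 in distal cells. Means of per-cell values gave 13 in proximal cells, and 1 was called there when the interval had to exclude 1, a rule added after seeing the data. Leaving out 1 cell set gave 23 to 27 for goblet, 18 to 21 for crypt and 13 to 17 for proximal against distal. Between conditions it gave 5 (without germ-free set 3) to 17 (without germ-free set 4) over all cells, 6 to 13 in goblet, 8 to 13 in crypt, 6 to 15 in proximal and 2 to 7 in distal cells. Each highest value came without germ-free set 4, and distal cells had 6 without germ-free set 3, which gave no count in proximal cells. In germ-free cells the gate comparisons gave 13, 7 and 0. Median-of-ratios scaling shifted the median of all genes by -0.11 for antibiotic goblet and germ-free crypt cells, and by -0.22 in proximal and -0.18 in distal cells between conditions.

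Single ratios that changed sign, on the log2 scale with 1 CPM added and with the cause not tested, follow; they are no bound where a group holds 0 UMI. Gcnt2 in goblet cells was 0.17 when thinned against -1.25, and B3gnt7 between conditions in goblet cells 0.28 when thinned against -0.63. In germ-free cells, against antibiotic ones, B3galt5 in crypt cells was -0.22 against 0.77, B4galnt2 in crypt cells 0.42 against -1.03, and proximal over distal Galnt12 was -0.31 against 1.05, Gcnt1 1.04 against -0.98 and B4galnt3 0.07 against -1.50. With stricter gates Gcnt1 proximal over distal was 1.11, and thinned B4galt4 was -0.32 against 1.07. Between conditions in proximal cells, stricter gates gave Galnt12 0.00 against -1.37, B4galnt3 -5.16 against 0.71 and St3gal6 -4.75 against 0.99, Leiden clusters gave B4galnt3 -0.02 and Gcnt2 0.42 against -0.78, all deposited cells gave B4galnt3 -0.29, and without germ-free set 3 C1galt1c1 was -0.06 against 0.64. B4galnt2 in distal cells was -0.26 with means of per-cell values against 0.80. Stricter gates and Leiden clusters gave no count for proximal against distal, nor for proximal or distal cells between conditions. Over the members called and all settings, 917 values stayed within the counting interval of the ratio, 289 moved outside it and 17 changed sign. Germ-free depth limits every comparison that uses those cells.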
